A study of Drosophila melanogaster with 13 samples.

Results

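The 8 single neurons described here were picked by hand from Drosophila melanogaster brains in which sNPFR-Gal4, a driver named for the short neuropeptide F receptor, labelled cells with GFP. They make up 8 of the 13 libraries of the series and carry the numbers 1, 2, 3, 4, 5, 6, 7 and 10 in their labels, which are used as names. Beside them stand 1 pool of sNPFR-Gal4 cells (pool 16) and 4 pools of TRH-Gal4 cells (pools 40, 45, 60 and 57), whose driver is named for tryptophan hydroxylase. The sNPFR brains were pinned and the TRH brains dissociated, both after protease digestion, and pools held 15 to 60 cells. All libraries were made with SMART-Seq v4 cDNA, amplified for 17 PCR cycles from single cells and 12 from pools, and with the Nextera XT kit. The labels give no animal, age, sex or further allele, so cells of 1 fly cannot be told from cells of several. The group therefore counts as 1 sample, and everything below is a description of these 8 cells with no test.

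The rule for the members was simple. Counts of each library were divided by its total and given as counts per 1000000 reads (CPM). A gene at 10 CPM or more in all 8 cells was called core, and a gene at 100 CPM or more in 1 cell and under 1 CPM in the other 7 was called private. No cell was given a type, and cells were not regrouped by their expression. With no molecular identifiers, PCR copies are counted as reads. The kits do not mark strand, so overlapping genes are uncertain.

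A fly neuron that uses acetylcholine makes it with choline acetyltransferase (ChAT), loads it into vesicles with the vesicular acetylcholine transporter (VAChT), breaks it down with acetylcholinesterase (Ace) and takes choline back up with the choline transporter ChT. Acetylcholine is the main fast excitatory transmitter of the fly brain. The sNPF receptor is a G protein-coupled receptor for the short neuropeptide F peptides, which are known for roles in feeding, sleep and odour processing. A Gal4 driver holds only a piece of a gene's regulatory DNA, so labelled cells need not contain the transcript of the gene that names it.

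Depth was uneven. The cells had 3.38 to 67.96 M reads, and cell 7 alone gave 52.7% of them. The limit set by a count of 0, taken as 3 reads, was 0.887 CPM in cell 4, the shallowest, and 0.0441 CPM in cell 7, and it covers counting error only. Mitochondrially encoded genes took 10.6% of the reads of cell 4 and 0.381% to 2.69% in the other cells. The general neuronal list summed to 20675 CPM in the lowest cell, 23095 CPM at the median and 37366 CPM in the highest.

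The libraries of cell 7, cell 10 and the sNPFR pool shared low-level reads, and this touches both rules. Genes at 100 CPM or more in cell 7, under 10 CPM in cell 10 and under 1 CPM in the other sNPFR libraries numbered 144, and all 144 had a read in cell 10. Of 260 genes chosen the same way in the pool, 260 had a read in cell 10, and of 234 chosen against cell 7, 210 had a read there. From the same 3 libraries, 0% to 9.26% of such genes had a read in any of cells 1 to 6. Cell 7 had 1493 and cell 10 had 1631 genes with 1 to 3 reads, against 249 to 365 in the other cells. The median trace in cell 10 was 417.6 reads per 1000000 of the same gene in cell 7 and 754.7 reads per 1000000 in the pool. Where this could place a gene inside or outside a rule, values without these libraries are given beside the result.

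**Figure D1:**
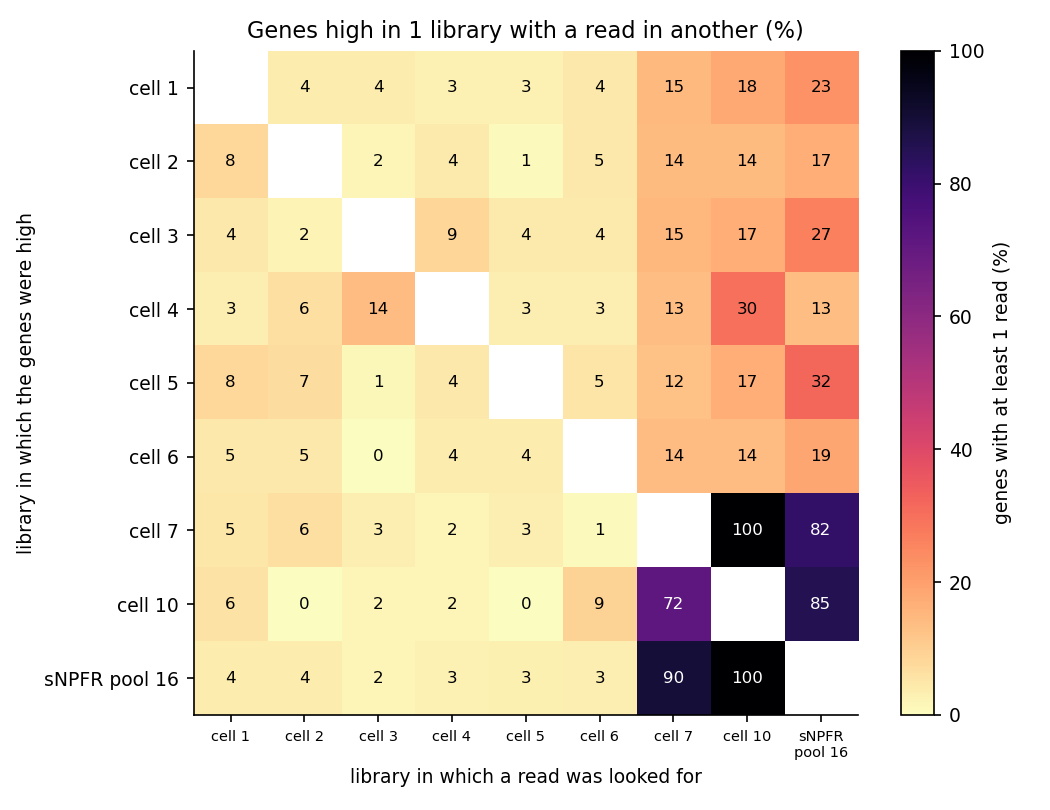
Share of genes that were high in 1 sNPFR library (vertical axis, 100 CPM or more) and had at least 1 read in another (horizontal axis) where they were under 10 CPM, among genes under 1 CPM in all the remaining sNPFR libraries. The square of cells 7, 10 and pool 16 stands out, with 100% of the 144 genes of cell 7 found in cell 10, whereas the traces of these 3 libraries in cells 1 to 6 stayed at 9.26% or less.

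Few genes were found in every cell and many in a single cell. Of 17737 genes, 7016 had a read in some cell and 4285 reached 10 CPM in at least 1 cell. That share belongs beside each count below of list genes that reached 10 CPM in a cell. The core held 156 of these 4285 genes, which is 3.64%. Private genes numbered 1092, or 25.5% of the 4285, and 29.9% of the 3654 genes that reached 100 CPM in some cell. In between, 834 genes reached 10 CPM in 2 cells, 357 in 4 and 158 in 7. Because the rules fix how many cells hold a gene, these counts describe the cells and are read no further.

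**Figure D2:**
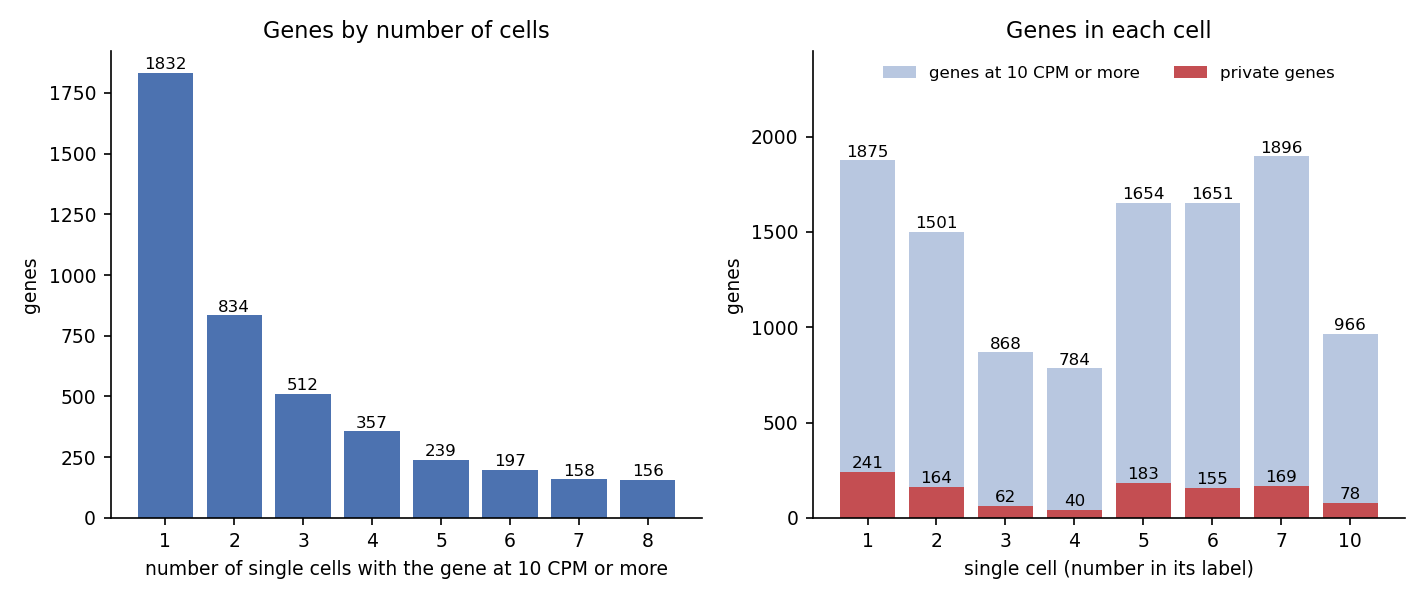
Left, number of genes by the number of single cells in which they reached 10 CPM. Right, genes at 10 CPM or more (pale bars) and private genes (red bars) in each cell. The count declines from 1832 genes held by 1 cell to 156 held by all 8, and cells 3, 4 and 10 hold the fewest genes.

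Cells 1 and 7 held the most genes at 10 CPM, 1875 and 1896, and cells 2, 5 and 6 held 1501, 1654 and 1651. Cells 3, 4 and 10 stood apart with 868, 784 and 966. The order of the cells was the same after every cell was thinned to the 3380533 reads of cell 4, with 1896 genes in cell 7, 968 in cell 10 and 784 in cell 4. Genes missed by a single cell followed the same division. Of the 158 genes found in 7 cells, 57 were missing from cell 4, 39 from cell 3 and 29 from cell 10, and from 2 to 11 from each of the other cells. Without cells 7 and 10, the core was 195 genes, or 5.21% of 3746 genes at 10 CPM in some cell, and private genes were 1163, or 31.1%. With the reads shared by cells 7, 10 and the pool taken off, 153 of the 156 core genes stayed, and 1171 genes were private.

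Each pair of cells overlapped in part. The genes shared by a pair made up 25.8% to 63.3% of either cell's genes at 10 CPM, with a median of 49.5% over 28 pairs taken both ways. The lowest share was that of cell 1 held by cell 4, where 483 genes were 25.8% of the genes of cell 1 and 61.6% of those of cell 4. Pearson's r of log2(CPM + 1) over the 4285 genes ran from 0.25 to 0.32 between cells, and from 0.30 to 0.42 between a cell and the sNPFR pool. The 4285 genes were those at 10 CPM in at least 1 of these cells, a choice in which the pool took no part. Of them, 1832 reached 10 CPM in 1 cell only. This choice bears on r between cells and on its contrast with the pool, and its part was not tested. Genes are not independent and the points share libraries, so the values of r are given as descriptions only. The upper end, 0.42, was cell 7 against the pool, libraries that share low-level reads.

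Of the 156 core genes, 74 belong to one or more of the 44 gene lists used here and 82 to none. The lists need not hold every member of a family. The RNA-binding protein list held 10 of them and the general neuronal list 8. The voltage-gated channel, mitochondrially encoded and long noncoding RNA lists held 7 each. The synaptic vesicle and the adhesion lists held 6 each and the nuclear oxidative phosphorylation list 5. Among genes at 10 CPM in a cell, these were from 7.69% (oxidative phosphorylation) to 57.1% (general neuronal) of a list, against 3.64% of all genes. The core held 147 protein-coding genes, 7 noncoding RNAs and the mitochondrial large ribosomal RNA among the 155 genes with an annotation, and 7 of the 156 lie on the mitochondrial genome. Core genes took 28.4% to 35.7% of the reads of 7 cells and 46.0% of cell 4. They were long: the median exon length was 6383 bases, against 2613 bases for all genes at 10 CPM in a cell and 1988 bases for private genes. CPM is not scaled by length, so a long transcript gives more reads per molecule, and the part of length in the core was not tested. Of the 156, 105 were at 100 CPM or more in all 8 cells.

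By level per exon length (transcripts per 1000000, TPM, median over the cells), the 10 highest core genes were headed by lncRNA:noe at 28879 TPM, a noncoding RNA of the nervous system, and mt:lrRNA, the mitochondrial large ribosomal RNA, at 14067 TPM. Next came Atpalpha, the catalytic subunit of the sodium pump, at 6182 TPM, and mt:CoIII, a mitochondrially encoded cytochrome oxidase subunit, at 5816 TPM. Argk, the arginine kinase that buffers ATP, stood at 5039 TPM. The others were mt:CoII, lncRNA:CR31451, Hsp83, mt:CoI and COX8, from 4087 to 4363 TPM. Of these 10, 6 belong by their known roles to ion pumping or the supply of ATP.

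Evenness separated the core genes sharply. The highest cell exceeded the lowest by a median of 15.8-fold in CPM, from 1.81-fold to 465-fold, with 24 genes under 5-fold and 17 at 100-fold or more. Fas1 (fasciclin 1, a cell adhesion protein; FBgn0285925, chromosome 3R, 16625238 to 16639771, plus strand) was the most even, at 2437 CPM in cell 1, 3631 CPM at the median and 4400 CPM in cell 5. Cam, the calcium sensor calmodulin, lay between 2386 and 6220 CPM. Among the 10 most even were further Sh, a voltage-gated potassium channel (933.4 to 3069 CPM), sesB, the mitochondrial ADP/ATP carrier (788.4 to 2297 CPM), and alphaTub84B, a tubulin (958.7 to 2767 CPM). The RNA-binding protein genes Syp, Rbp6 and fne, a relative of elav, were also in this set, as were CG3662 and CG7971.

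The most uneven core gene was Ptp99A, a receptor tyrosine phosphatase of axon guidance (FBgn0004369, chromosome 3R, 29377646 to 29487131, plus strand). It stood at 10.4 CPM in cell 7, 67.8 CPM at the median and 4841 CPM in cell 4, and at 0.143 CPM in the sNPFR pool. Cell 5 followed at 827.2 CPM, and the other 6 cells lay at 150.9 CPM or less. pAbp, the poly(A)-binding protein, stood at 10.3 CPM in cell 3, 943.2 CPM at the median and 3216 CPM in cell 2, with cells 4, 6 and 10 also low, at 17.8, 75.5 and 126.7 CPM. dlg1, a synaptic scaffold, was lowest in cell 2 at 14.1 CPM and highest in cell 10 at 4133 CPM. Cell 4 was the lowest for 3 of the 10 most uneven genes and cell 10 for 4 of them.

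In cell 4, ATPsynbeta, the catalytic beta subunit of the ATP synthase, stood at 13.3 CPM, against 1582 to 3125 CPM in the other 7 cells. Other ATP synthase genes, named here after their values were seen, went both ways in cell 4. ATPsynCF6, ATPsynO and ATPsyndelta were highest there, at 2325, 1920 and 1929 CPM. ATPsynG, ATPsyngamma and ATPsynF had 0 reads there and ATPsynB was at 0.296 CPM. Vha16-1, the proteolipid of the vacuolar proton pump, stood at 13.6 CPM in cell 4, against 402.9 to 3261 CPM. In cell 10, Appl, the fly amyloid precursor protein, stood at 10.9 CPM, Ace at 13.7 CPM, Bacc at 19.7 CPM and hig, a protein of the cleft of cholinergic synapses, at 21.3 CPM. These 4 values lie where shared reads count: with those reads taken off, Ace, Appl and hig left the core and Bacc stayed. Near the 10 CPM boundary, pAbp (10.3 CPM in cell 3) and Ptp99A (10.4 CPM in cell 7) were just inside, and MESK2 (9.90 CPM) and acj6 (9.74 CPM), both lowest in cell 10, just outside.

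**Figure D3:**
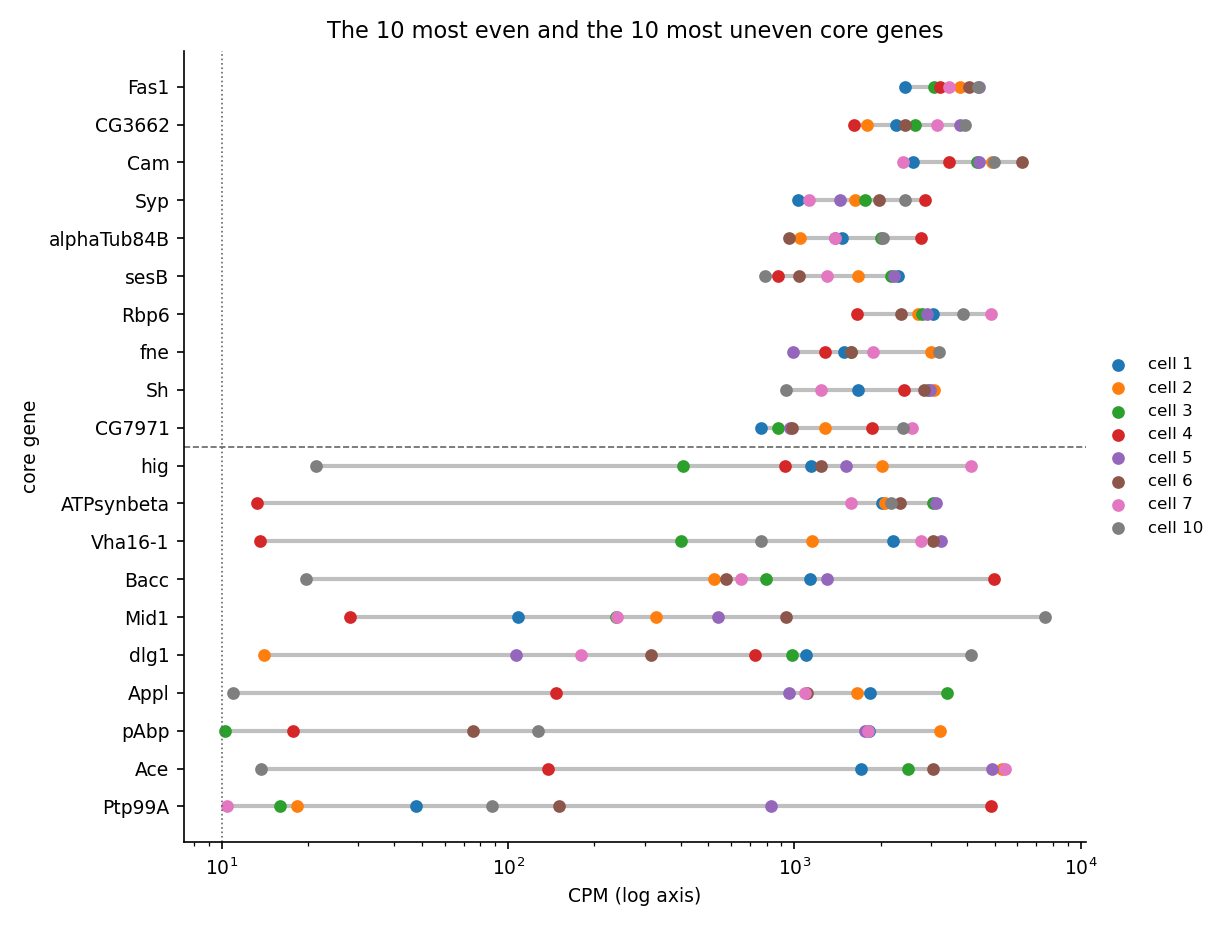
CPM on a log axis of the 10 most even (top, above the dashed line) and 10 most uneven (bottom) core genes, with a point for each cell and a grey bar from the lowest to the highest. The dotted line is the 10 CPM threshold. Fas1 spans 2437 to 4400 CPM, whereas Ptp99A spans 10.4 to 4841 CPM, and the lowest points of the lower set belong to cells 2, 3, 4, 7 and 10.

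Genes of acetylcholine synthesis and packaging were present together in 7 of 8 cells, and in part in cell 10. ChAT (FBgn0000303, chromosome 3R, 18705501 to 18732344, plus strand) was a core gene, at 186.4 CPM in cell 5, 1502 CPM at the median and 2843 CPM in cell 10. VAChT (FBgn0270928, chromosome 3R, 18705501 to 18718916, plus strand) ranged over 1209.6 to 3128 CPM in cells 1 to 7, with a median over all 8 of 1946 CPM, and at 2.60 CPM in cell 10. The cell with the most ChAT had the least VAChT. VAChT lies within ChAT on the same strand, and reads of the pair can be split in either way.

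The cholinergic genes around this pair were less regular. ChT, listed as CG7708 (FBgn0038641, chromosome 3R, 18680604 to 18686739, plus strand), was at 774.2, 508.4, 1690 and 492.6 CPM in cells 1, 2, 3 and 7, at 0 reads in cells 4, 5 and 6 and at 0.729 CPM in cell 10. Cells 1, 2, 3 and 7 therefore held all 4 genes of the list. Ace (FBgn0000024, chromosome 3R, 13222951 to 13259517, minus strand) stood at 1708 to 5438 CPM in 6 cells, and was low in cell 4 (138.1 CPM) and cell 10 (13.7 CPM). In the sNPFR pool all 4 genes were present, with ChAT at 1962, VAChT at 221.2, ChT at 189.0 and Ace at 1177 CPM. ChAT was the only core gene that missed 10 CPM in a TRH pool, at 0, 29.2, 105.1 and 144.5 CPM in pools 40, 45, 60 and 57.

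Other transmitters appeared as single genes in single cells. VGAT, the vesicular GABA transporter (FBgn0033911, chromosome 2R, 14198478 to 14201249, minus strand), was private to cell 4 at 1515 CPM, while Gad1, which makes GABA, had 0 reads in all 8 cells. Tdc2, the neuronal tyrosine decarboxylase that makes tyramine (FBgn0050446, chromosome 2R, 6684745 to 6689974, minus strand), was private to cell 1 at 251.7 CPM. Tbh, which turns tyramine into octopamine, reached 10 CPM in cell 4 only, at 10.1 CPM. No cell held both. VGlut, the vesicular glutamate transporter, peaked at 7.99 CPM in cell 4, and Trh, SerT, Vmat, ple, DAT and Hdc stayed under 1 CPM in all 8 cells.

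Ddc, the aromatic amino acid decarboxylase of serotonin and dopamine synthesis (FBgn0000422, chromosome 2L, 19116483 to 19120306, minus strand), was widespread without its partner genes. It stood at 1.56 CPM in cell 10, 335.0 CPM at the median and 4790 CPM in cell 4, and at 85.8 CPM or more in the 7 cells other than cell 10. It overlaps CG10561 on the opposite strand, which reached 617.4 CPM in a cell.

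The genes named by the driver and the serotonin receptors divided the cells. sNPF-R (FBgn0036934, chromosome 3L, 20058511 to 20089007, minus strand) was at 137.1, 1192, 925.9, 739.1 and 2407 CPM in cells 1, 2, 4, 6 and 7. It was at 1.53 CPM in cell 3, 0 reads in cell 5 and 3.33 CPM in cell 10, so 3 of 8 cells of this driver lacked its transcript at 10 CPM. The pool stood at 139.7 CPM. The peptide gene sNPF had 0 reads in all 8 cells and in the pool, against 323.0 ± 46.1 CPM (SD, n = 4) in the TRH pools.

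5-HT1A, an inhibitory serotonin receptor (FBgn0004168, chromosome 2R, 19067155 to 19121958, plus strand), reached 10 CPM in 5 cells, at 149.0, 1010, 125.4, 176.1 and 61.6 CPM in cells 1, 2, 5, 6 and 7. It had 0 reads in cells 3 and 4 and a single read in cell 10. It overlaps Ir56a on the opposite strand, which reached 536.8 CPM. Of the 5 serotonin receptor genes, a cell held 0 to 3 at 10 CPM, and cells 2 and 5 held 5-HT1A alone. Cell 7 held 5-HT1A, 5-HT1B (627.4 CPM) and 5-HT7 (57.8 CPM), and cell 6 held 5-HT1A, 5-HT1B (45.4 CPM) and 5-HT2B (292.5 CPM), which was private to it. Cell 1 added 5-HT2A at 15.0 CPM, cell 4 had 5-HT7 alone at 18.6 CPM, and cells 3 and 10 had none at 10 CPM. Of these 5 genes only 5-HT1A reached 10 CPM in the sNPFR pool.

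**Figure D4:**
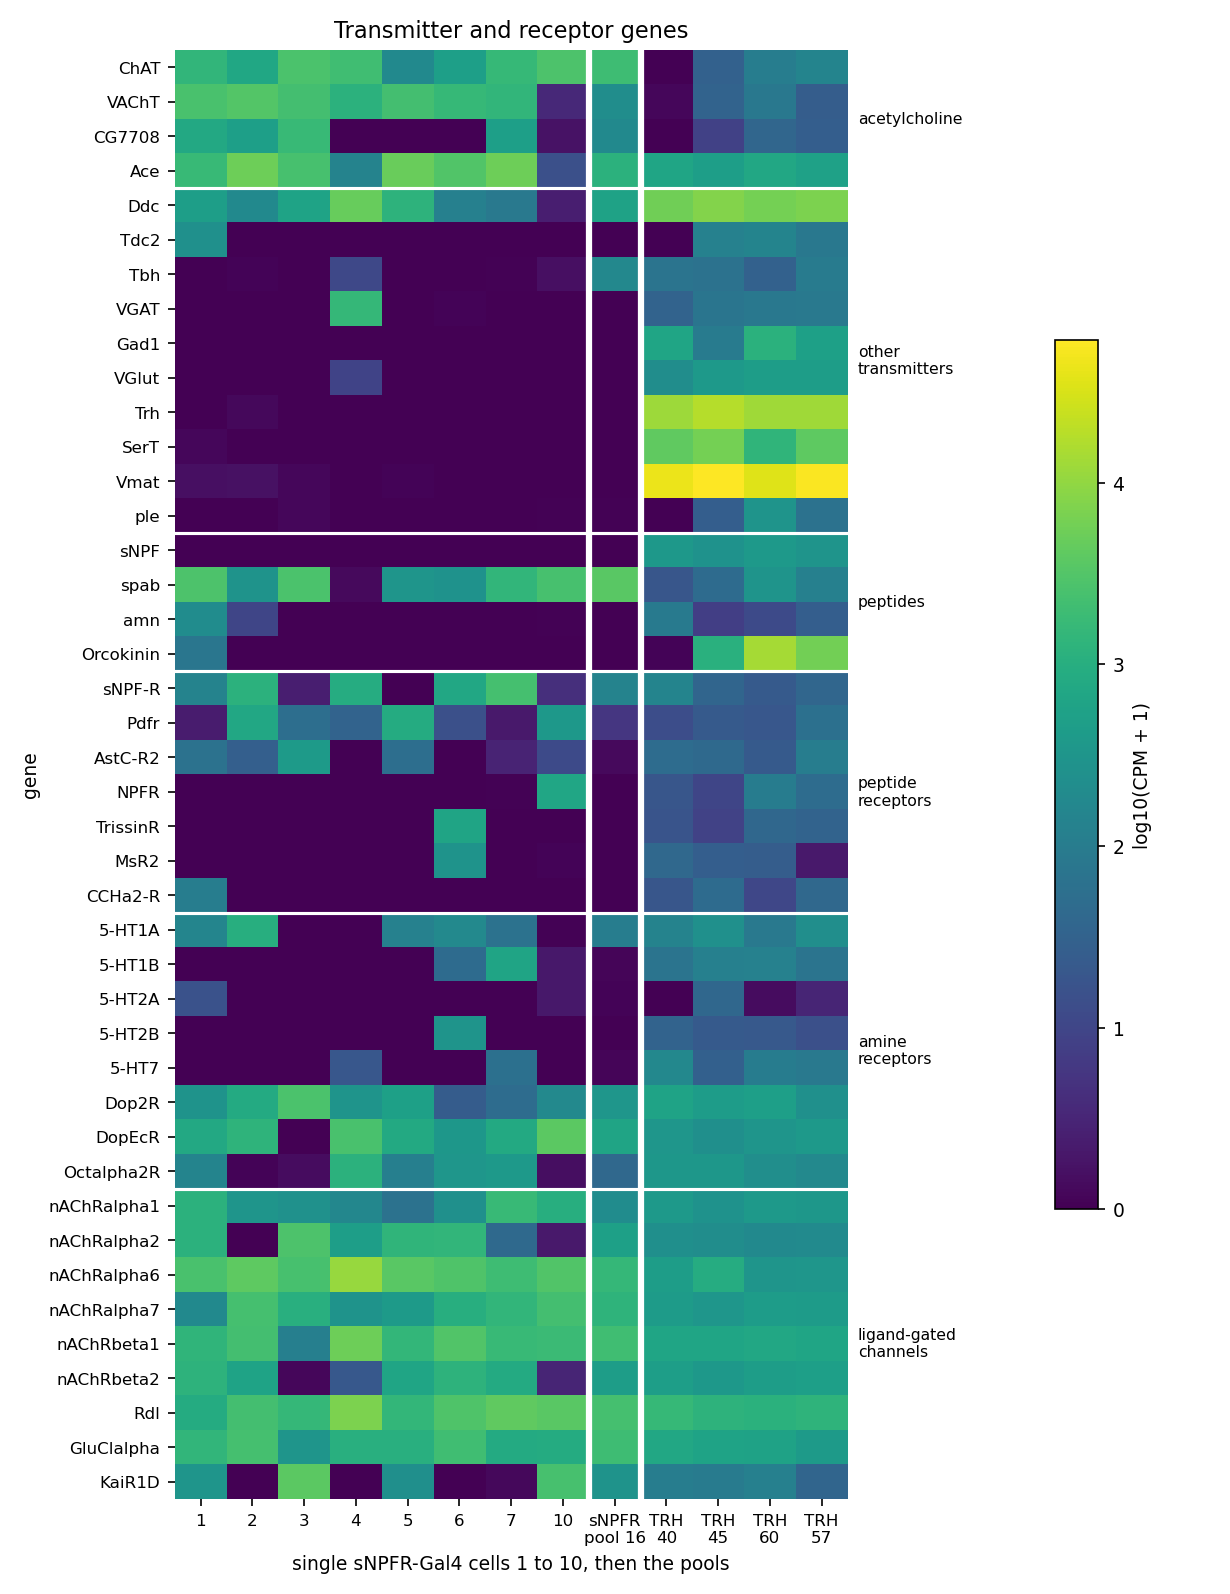
Levels of transmitter, peptide and receptor genes as log10(CPM + 1), in the 8 single cells (left), the sNPFR pool (middle) and the 4 TRH pools (right). ChAT runs through all 8 cells, VGAT lights up in cell 4, Tdc2 in cell 1 and NPFR in cell 10, and nAChRalpha6 and nAChRbeta1 are filled in every cell.

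Receptor channels for acetylcholine, GABA and glutamate ran through all cells. Of 10 nicotinic acetylcholine receptor subunits, 9 reached 10 CPM in some cell, 4 to 8 in any single cell. Of the 9, 4 were core (44.4%, against 3.64% of all genes), namely nAChRalpha1, nAChRalpha6, nAChRalpha7 and nAChRbeta1. nAChRalpha6 stood at 1961 CPM in cell 7, 2968 CPM at the median and 11241 CPM in cell 4, against at most 3899 CPM in the others. nAChRbeta1 was at 1330 to 5448 CPM in 7 cells and at 116.3 CPM in cell 3. nAChRalpha2 was at 0 reads in cell 2 and 1.15 CPM in cell 10, and at 41.9 to 2842 CPM in the others. The summed CPM of the list ran from 6783 to 10814 in 7 cells, with 17656 in cell 4.

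Channels gated by GABA and glutamate that pass chloride were also found in all 8 cells. Rdl, a GABA-gated chloride channel, was core at 885.7 CPM in cell 1, 2612 CPM at the median and 6948 CPM in cell 4. GluClalpha, a glutamate-gated chloride channel, was core at 315.4 CPM in cell 3, 1035 CPM at the median and 2359 CPM in cell 2. The metabotropic and excitatory receptors were patchier. GABA-B-R1 and GABA-B-R2, the partner subunits of the metabotropic GABA receptor, reached 10 CPM together in cells 1, 3 and 5 and apart in cells 2, 6, 7 and 10. KaiR1D, a kainate-type glutamate receptor, stood at 3832 CPM in cell 3 and 2461 CPM in cell 10, at 311.4 and 244.0 CPM in cells 1 and 5, and at 0.294 CPM or less in the other 4. Nmdar2, an NMDA receptor subunit, was held by cells 1, 2, 6 and 7 at 156.4 to 703.7 CPM. The muscarinic receptor mAChR-A was held by cells 1, 2, 5 and 6 at 190.5 to 990.4 CPM.

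Among amine receptors, Dop2R, an inhibitory dopamine receptor (FBgn0053517, chromosome X, 20004680 to 20062706, minus strand), was the only core member. It stood at 23.8 CPM in cell 6, 294.4 CPM at the median and 2705 CPM in cell 3. DopEcR, a receptor for dopamine and ecdysone, was at 341.5 to 3851 CPM in 7 cells and at 0 reads in cell 3, the cell with the most Dop2R. Of 8 octopamine and tyramine receptor genes, 2 reached 10 CPM in a cell, a count too small to set against 4285 of all 17737 genes. Octalpha2R did so in cells 1, 4, 5, 6 and 7, at 115.6 to 1187 CPM, and Oamb in cell 4 at 63.9 CPM. Octbeta2R stayed at or under 0.208 CPM in every cell, beside 204.9 CPM in the sNPFR pool.

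Neuropeptide receptors differed from cell to cell. Of 41 genes, 11 reached 10 CPM in some cell, beside 4285 of all 17737 genes, and a cell held 2 to 5 of them. Of the 11, none was core and 4 were private. These counts are too small to set against the 3.64% core and 25.5% private of all genes. NPFR, the receptor of neuropeptide F (FBgn0037408, chromosome 3R, 6187315 to 6195403, plus strand), was private to cell 10 at 672.5 CPM. TrissinR, the trissin receptor (FBgn0085410, chromosome 2L, 5824004 to 5856767, plus strand), and MsR2, a myosuppressin receptor, were private to cell 6 at 634.3 and 288.1 CPM. CCHa2-R, the receptor of CCHamide-2, was private to cell 1 at 105.2 CPM. Pdfr, the receptor of the clock peptide PDF, was shared by 6 cells, at 1.09 CPM in cell 7, 41.7 CPM at the median and 881.2 CPM in cell 5. All 4 private receptors were at 0.0356 CPM or less in the sNPFR pool.

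Peptide genes were found less often than these receptors. Of 50 neuropeptide genes, 5 reached 10 CPM in a cell, beside 4285 of all 17737 genes. spab (space blanket; FBgn0033358, chromosome 2R, 8963164 to 8968184, minus strand) was in 7 cells, at 274.4 to 2833 CPM, with 0.296 CPM in cell 4, and at 3691 CPM in the sNPFR pool. The other 4 reached 10 CPM in cell 1 alone: amn (amnesiac) at 210.1 CPM, Orcokinin at 73.2 CPM, Gpb5, a glycoprotein hormone subunit, at 17.9 CPM and Trissin at 10.8 CPM. amn overlaps Hers on the opposite strand, which reached 1856 CPM in a cell. Cell 1 held 5 peptide genes and cell 4 held none, though the dense-core vesicle gene IA-2 was core and stood at 10927 CPM in cell 4, its highest value, and at 2690 CPM in cell 1, its lowest. Pal2, an enzyme of peptide amidation, was at 0 reads in cells 3 and 4 and at 455.2 to 2746 CPM in the others.

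Voltage-gated channels made part of the core. Of 29 channel genes, 23 reached 10 CPM in some cell, 12 to 22 in any single cell. Of the 23, 7 were core (30.4%, against 3.64% of all genes), namely para, Ca-alpha1D, Ca-alpha1T, Sh, slo, Ih and NaCP60E. para, the voltage-gated sodium channel of the action potential, stood at 1603 CPM in cell 10, 2548 CPM at the median and 15611 CPM in cell 4, against at most 3491 CPM in the other cells. Both Sh and NaCP60E overlap genes on the opposite strand. Ih, the hyperpolarization-activated pacemaker channel, was at 1511 to 3064 CPM in 7 cells and at 523.2 CPM in cell 10. slo, the calcium-activated potassium channel, was lowest in cell 3 at 50.9 CPM and highest in cell 4 at 8722 CPM. Shab, a delayed-rectifier potassium channel, was at 5.03 CPM in cell 3 and 3.49 CPM in cell 10, and at 224.3 to 4026 CPM in the others. In cell 4 the summed CPM of the list was 44731, against 15479 to 25114 in the other cells.

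The release machinery was present in every cell, less completely in cell 10. Of 25 synaptic vesicle and active zone genes, 24 reached 10 CPM in a cell, 10 in cell 10 and 14 to 22 in the others. Of the 24, 6 were core (25%, against 3.64% of all genes). They were Syt1, the calcium sensor of release, nSyb and Syx1A, SNARE proteins of vesicle and membrane, and unc-13, which primes vesicles. The others were cpx (complexin), which clamps fusion, and shi (dynamin), which recovers membrane. nSyb stood at 1304 CPM in cell 3, 2873 CPM at the median and 5996 CPM in cell 2. cpx was at 3145 to 9033 CPM in 7 cells and at 809.0 CPM in cell 4. brp, the active zone scaffold bruchpilot, missed the core through cell 10 alone, with 4.84 CPM there, 939.8 to 2746 CPM in 6 cells and 10718 CPM in cell 4. Rph (rabphilin), a Rab effector on vesicles, was private to cell 4 at 1097 CPM, and overlaps ras on the opposite strand.

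Of the 14 general neuronal genes, 14 reached 10 CPM in a cell and 11 to 14 did so in each cell. The core held 8 of the 14 (57.1%, against 3.64% of all genes). elav, a pan-neuronal RNA-binding protein gene that is named here after its values were seen, was an exception. It stood at 879.9, 76.7, 403.2 and 468.5 CPM in cells 2, 3, 6 and 7, at 8.56 and 4.44 CPM in cells 1 and 4, at 0.313 CPM in cell 10 and at 0 reads in cell 5. Its relative fne was at 990.2 to 3197 CPM in all 8 cells. Of 25 RNA-binding protein genes, 22 reached 10 CPM in a cell. Of these, 10 were core (45.5%, against 3.64% of all genes), among them Rbfox1, mub, shep and ps, with shep between 1323 and 4466 CPM.

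Homeodomain genes, which are known to set neuron identity, came in mixed combinations. Of 92 homeodomain genes, 13 reached 10 CPM in some cell, beside 4285 of all 17737 genes, and 4 to 9 did so in any cell. Of the 13, none was core and 2 were private, counts too small to set against the 3.64% and 25.5% of all genes. acj6, a POU homeodomain factor (FBgn0000028, chromosome X, 15350239 to 15379064, minus strand), came nearest, at 162.8 to 717.3 CPM in cells 1 to 7 and 9.74 CPM in cell 10. It overlaps Pp1-13C on the same strand. slou was held by cells 5, 6 and 10 at 485.0, 426.5 and 1883 CPM, tup by cells 1, 3, 6 and 10 at 454.2 to 695.1 CPM, and onecut by cells 2, 3 and 7 at 396.3 to 683.1 CPM. pdm2 was private to cell 4 at 242.6 CPM and pdm3 to cell 6 at 222.4 CPM. These 6 genes, picked from the 13, had 6 different sets of cells, and the private rule fixes those of pdm2 and pdm3. The sets are a description and were not compared with those of other genes.

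Of 59 genes on a list of other transcription factors, 18 reached 10 CPM in a cell. Of these, 3 were core (16.7%, against 3.64% of all genes). pros (prospero), an atypical homeodomain protein (FBgn0004595, chromosome 3R, 11328480 to 11407627, plus strand), was at 1657 CPM in cell 3, 4948 CPM at the median and 9783 CPM in cell 2, against 298.9 ± 105.6 CPM (SD, n = 4) in the TRH pools. jim and mamo, zinc finger genes, ran from 681.5 to 5580 CPM and from 640.4 to 5593 CPM. mamo overlaps CG11068 on the opposite strand. Among nuclear receptors Eip75B, an ecdysone-induced receptor, was core at 198.1 to 3302 CPM. fkh (fork head) was in 7 cells at 206.1 to 2960 CPM, and at 0 reads in cell 4. dac (dachshund) was highest in cell 4 at 2222 CPM and at 1.04 CPM in cell 10.

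Of 11 clock genes, 8 reached 10 CPM in some cell, 1 to 4 in any cell. Of the 8, none was core, a count too small to set against the 3.64% of all genes. Private were 2 (25%, near the 25.5% of all genes). Pdp1, a bZIP transcription factor, and sgg, the fly GSK3 kinase, were in 7 cells each. per (period), a core component of the circadian clock (FBgn0003068, chromosome X, 2685580 to 2692780, plus strand), was private to cell 10 at 3441 CPM, with 0 reads in cells 1 to 6 and 0.162 CPM in cell 7. The sNPFR pool had 0.267 CPM. cwo (clockwork orange) was private to cell 6 at 128.8 CPM, and cyc (cycle) reached 333.7 CPM in cell 7 and 12.4 CPM in cell 4. Of 6 activity-regulated genes, 4 were found in a cell, 0 to 4 per cell. Hr38, a nuclear receptor gene induced by neuronal activity, stood at 87.0 to 3847 CPM in 6 cells, highest in cell 10, and at 0 reads in cells 3 and 4. Jra, the fly Jun, was private to cell 7 at 160.1 CPM.

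Surface molecules that serve recognition between neurons were held in partly overlapping sets. Of 31 Dpr and DIP genes, immunoglobulin proteins that pair between synaptic partners, 20 reached 10 CPM in some cell, 4 to 14 in any cell. Of the 20, none was core, a count too small to set against the 3.64% of all genes. Private was 1 (5%, against 25.5% of all genes). DIP-epsilon was at 373.4 to 3691 CPM in 7 cells and 0.296 CPM in cell 4, and CG31814 (DIP-kappa) at 51.2 to 3555 CPM in the same 7 cells and at 0 reads in cell 4. dpr14 was instead highest in cell 4, at 2109 CPM, followed by 51.3 and 39.8 CPM in cells 5 and 1. dpr5 was private to cell 7 at 283.9 CPM. Of 75 adhesion and guidance genes, 51 were found in a cell. Of these, 6 were core (11.8%, against 3.64% of all genes) and 7 private (13.7%, against 25.5% of all genes). The core members were Fas1, Dscam2, Ptp99A, tutl, Nrx-1 (neurexin) and Nlg3 (neuroligin 3). Nrx-1 was at 963.0 to 1863 CPM in 6 cells, and at 37.6 and 28.0 CPM in cells 4 and 10. Private ones were beat-IV and fra, the netrin receptor frazzled, in cell 1, robo1, the Slit receptor, in cell 2, beat-IIIc in cell 4, beat-Vb in cell 5, and sdk (sidekick) and Fas3 in cell 6, at 137.4 to 1472 CPM.

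Of 15 cAMP signalling genes, 11 were at 10 CPM in a cell, 1 of them core and 2 private, counts too small to set against the 3.64% and 25.5% of all genes. dnc, the cAMP phosphodiesterase dunce, was core at 61.4 to 1611 CPM. Of the adenylyl cyclases, which make cAMP, Ac13E was private to cell 3 at 457.7 CPM, Ac76E to cell 1 at 107.7 CPM, Ac3 was held by cells 1, 6, 7 and 10 at 412.5 to 2879 CPM, and rut (rutabaga) by cells 1, 5 and 6 at 37.5 to 111.1 CPM. Cells 2 and 4 had none of these 4 at 10 CPM.

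Housekeeping families were present in part in each cell. Of 92 cytosolic ribosomal protein genes, 82 reached 10 CPM in some cell, beside 4285 of all 17737 genes, and 38 to 49 did so in any cell. Of the 82, 4 were core (4.88%, near the 3.64% of all genes) and 1 was private (1.22%, against 25.5% of all genes), RpS3A in cell 6 at 271.0 CPM. The sNPFR pool held 69 of them and all 4 TRH pools held 80. Their summed CPM was 5781 to 7512 in cells 1, 2, 5, 6 and 7, 18117 and 20462 in cells 3 and 10, and 42376 in cell 4. Cells 3, 4 and 10 were also the cells with the fewest genes. Of 84 nuclear oxidative phosphorylation genes, cell 4 held 18, cell 10 held 29, cell 3 held 33 and the others 43 to 58. The summed CPM did not follow these counts. It was 22751 in cell 4, 17109 in cell 10 and 28249 in cell 3, and 15219 to 24826 in the others. Of the 65 on this list at 10 CPM in a cell, 5 were core (7.69%, against 3.64% of all genes). The lists go by gene symbol and can miss members of a family, so these counts hold for the listed genes only. blw, levy, cype and sta were core but are in no list. COX4, a cytochrome oxidase subunit, ran from 162.7 to 4450 CPM, and ATPsynC, the ring subunit of the ATP synthase, from 33.8 CPM in cell 10 to 2380 CPM in cell 1. Of 32 proton pump genes, cells 3, 4 and 10 held 4, 4 and 5, and the other cells 10 to 14.

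Heat shock genes had unlike patterns over the cells. Hsp83, the fly Hsp90, was core at 146.1 CPM in cell 4, 3961 CPM at the median and 9050 CPM in cell 10. Hsp68, a stress-inducible Hsp70 relative, was at 6654 CPM in cell 4, 4057 CPM in cell 3 and 1475 CPM in cell 5, and at 49.8 CPM or less in the other 5 cells. Hsp27 and Hsf, the heat shock transcription factor, were private to cell 5 at 205.5 and 300.2 CPM. Hsp27 was barely so, with 0.990 CPM in cell 10. Hsp70Bb was core at 152.3 to 2832 CPM, but near-identical Hsp70 copies can share its reads.

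Of 82 long noncoding RNAs at 10 CPM in a cell, 7 were core (8.54%, against 3.64% of all 4285 genes) and 23 private (28.1%, close to the 25.5% of all genes). lncRNA:noe, lncRNA:Hsromega and lncRNA:roX1, an RNA of the male dosage compensation complex, were among the core members, with lncRNA:roX1 at 2155 CPM in cell 4 and 4560 to 8924 CPM in the other 7 cells. Of the private ones, lncRNA:CR43253 was the highest in cell 10, at 723.3 CPM, and lncRNA:CR31386 in cell 5, at 495.6 CPM. lncRNA:CR43253 had 0 reads in all 4 TRH pools.

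Private genes were spread over all cells. They numbered 241, 164, 62, 40, 183, 155, 169 and 78 in cells 1, 2, 3, 4, 5, 6, 7 and 10, or 7.04% to 16.8% of the genes each cell had at 100 CPM. They took 4.72% to 9.56% of a cell's reads. Their median level was 264.3 CPM in cell 7 and 1009.6 CPM in cell 4, the cells with the most and the fewest reads. Of the 1092, 452 had 0 reads in all other cells. For cell 7 this was 0 of 169, and all 169 had a read in cell 10, the library with which it shares traces. Among the 845 private genes of cells 1 to 6, 721 (85.3%) had 0 reads in the other 5 of these cells. By level, CG18810 (100.2 CPM) and CG17271 (100.4 CPM) were just inside the rule, and ana (99.9 CPM) and Cf2 (99.6 CPM) just outside. By the next cell, Hsp27 and Nfs1 (each 0.990 CPM in cell 10) were just inside, and Hr96 and D19A (each 1.001 CPM in cell 1) just outside. There were 12 overlapping pairs of genes private to the same cell, 11 of them on opposite strands, where 1 transcript can give reads to both genes.

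In cell 1 the 5 highest private genes were CG14971 at 1849 CPM, Neurl4 at 1312 CPM, dbo, a BTB-kelch protein, at 1242 CPM, mib2, a ubiquitin ligase, at 1163 CPM, and CG12038 at 1125 CPM. Cell 1 also held the largest number of private genes, among them Tdc2, CCHa2-R, fra and beat-IV. In cell 2 they were Oatp30B, an organic anion transporter, at 1680 CPM, clu, a gene of mitochondrial distribution, at 1559 CPM, Nup98-96, of the nuclear pore, at 1430 CPM, CG7504 at 1428 CPM and prominin-like at 1332 CPM. The list genes private to cell 2 were robo1 at 478.7 CPM and 4 long noncoding RNAs.

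In cell 3 they were Klp64D, a kinesin-II motor subunit, at 2986 CPM, Pngl, a peptide N-glycanase, at 2689 CPM, Nak, a Numb-associated kinase, at 2435 CPM, abs, an RNA helicase, at 2241 CPM, and CG7872 at 2046 CPM. In cell 4 TRAM, a protein of the endoplasmic reticulum translocon (FBgn0040340, chromosome X, 935232 to 937822, plus strand), reached 13806 CPM, the highest private value of any cell. It overlaps CG32815 on the same strand. ZnT86D, a zinc transporter, followed at 3700 CPM, HBS1, of ribosome rescue, at 3406 CPM, CG5800 at 3015 CPM and CG15916 at 2993 CPM. Cell 4 had the fewest private genes, and VGAT, beat-IIIc, Rph and pdm2 were among its 40.

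In cell 5 they were Nrt (neurotactin), an adhesion protein, at 1651 CPM, ewg (erect wing), a transcription factor, at 1233 CPM, CG13375 at 1218 CPM, Ulp1, a SUMO protease, at 1083 CPM and CG9902 at 1078 CPM. trpl, a light-activated channel of photoreceptors (FBgn0005614, chromosome 2R, 9753697 to 9765518, plus strand), was private to cell 5 at 634.0 CPM and stood at 0 reads in the sNPFR pool. The rhodopsin gene ninaE, named here after its values were seen, had 0 reads in every cell. In cell 6 they were Dp1, an RNA-binding protein, at 1468 CPM, Tom70, of mitochondrial protein import, at 1371 CPM, Sec24CD, of the COPII coat, at 1282 CPM, HPS4 at 1277 CPM and Vps15, a partner of the lipid kinase Vps34, at 1201 CPM. Cell 6 also held the private receptors TrissinR, MsR2 and 5-HT2B.

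In cell 7 the 5 highest were lower, CG4554 at 769.3 CPM, Sec3, of the exocyst, at 695.3 CPM, Osbp, an oxysterol-binding protein, at 609.7 CPM, vimar at 601.5 CPM and stac at 594.3 CPM. Each had a trace in another cell, from 0.521 to 0.938 CPM. In cell 10 the highest private genes included Raf, the kinase that activates the MAP kinase cascade (FBgn0003079, chromosome X, 2295466 to 2343870, plus strand), at 3521 CPM, per at 3441 CPM, ADPS, of ether lipid synthesis, at 3131 CPM, and bdg (bedraggled) at 2759 CPM. Raf stood at 2.03 CPM in the sNPFR pool, which shares traces with cell 10.

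Markers of other cell types were found in part, some of them in most cells. Over all 17737 genes, 4285 reached 10 CPM in a cell. Of 14 glial markers, 5 reached 10 CPM in some cell, and repo, the defining glial transcription factor, had 2 reads in all 8 cells together. alrm had 19 reads and Eaat1 55. The summed level of the list was 16.3 CPM in cell 4, 1055 CPM at the median and 1831 CPM in cell 6, and most of it in 6 cells was Eaat2, an amino acid transporter gene, at 606.0 to 1825 CPM. zyd and nrv2 were private to cell 1, at 211.5 and 129.7 CPM, and Tret1-1, a trehalose transporter, peaked at 472.1 CPM in cell 10. The sNPFR pool differed, with Eaat1 at 1105 CPM and alrm at 323.2 CPM.

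Of 12 muscle markers, 4 reached 10 CPM, and the sum was 232.1 CPM in cell 10 and 14.1 CPM or less in the other 7 cells. Act57B, a muscle actin, gave 148.1 CPM of it, while Mhc, the muscle myosin heavy chain, had 0 reads in all cells. Actin genes are near-identical and can share reads. Of 10 hemocyte and basement membrane markers none reached 10 CPM, and the highest sum was 0.521 CPM, in cell 10. Of 8 fat body markers, FASN1, a fatty acid synthase, was at 1168 CPM in cell 2 and 278.9 CPM in cell 3, and apolpp at 53.4 CPM in cell 1, while Fbp1, Fbp2, Lsp2 and the yolk protein genes Yp1, Yp2 and Yp3 had 0 reads. Of 16 photoreceptor markers, 4 were found, namely norpA, a phospholipase C of phototransduction, at 283.5 to 3348 CPM in 6 cells, trpl, Arr1 and Arr2. Arr1 and Arr2, the photoreceptor arrestins, reached 13.5 and 30.03 CPM in cell 1. Of 10 Kenyon cell markers, 6 were found, at a summed 655.8 CPM in cell 10, 3461 CPM at the median and 5128 CPM in cell 6. mub, an RNA-binding protein gene, was core, and dac was in 7 cells, while ey, toy, prt and sNPF had 0 reads. The part of any of these in the cells' other genes was not tested.

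The pools were set beside the cells as values. Over all genes, the sNPFR pool held 2798 at 10 CPM, and the TRH pools held 5119 to 5686 each. Of the 4285 genes at 10 CPM in some cell, 2275 (53.1%) were also at 10 CPM in the sNPFR pool and 3043 (71%) in all 4 TRH pools. The share was higher for genes held by more cells, except that in the TRH pools it was 99.5% for 6 cells and 96.2% for 7. In the sNPFR pool it was 28.9% for genes held by 1 cell, 81.8% for genes held by 4 and 99.4% for genes held by 8, and in all TRH pools it was 48.9%, 95.8% and 99.4% for the same groups. The level of the genes changed along with this, since the median CPM where a gene was present was 262.3 for genes of 1 cell, 339.3 for genes of 4 and 1252 for genes of 8. In a pool, fewer cells with a transcript and less of it in each cell cannot be told apart.

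**Figure D5:**
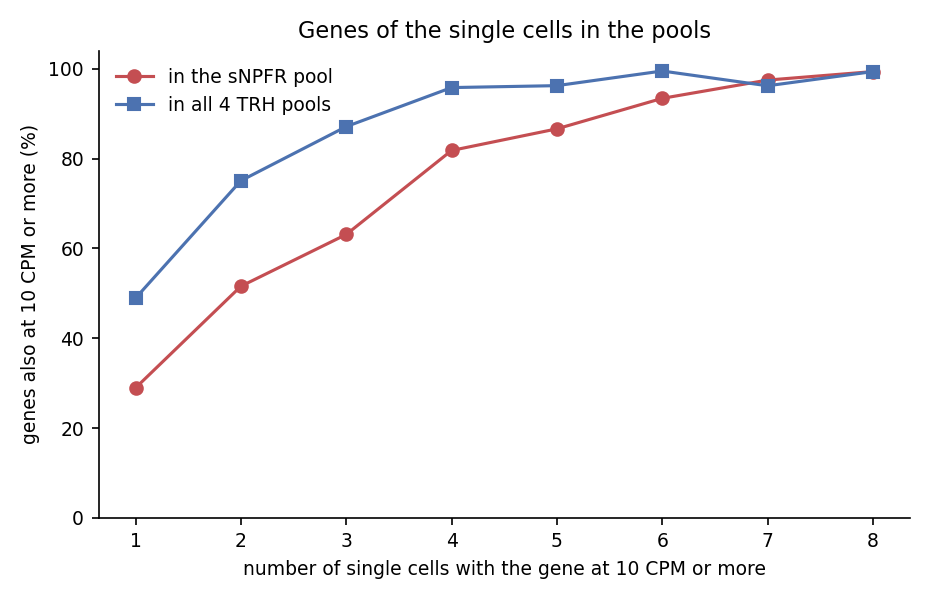
Share of genes also at 10 CPM or more in the sNPFR pool (red circles) and in all 4 TRH pools (blue squares), by the number of single cells that held the gene at 10 CPM. Both shares reach 99.4% at 8 cells, the TRH curve with a dip to 96.2% at 7 cells, and the TRH pools lie above the sNPFR pool for genes of 1 to 6 cells.

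Of the 156 core genes, 155 were at 10 CPM in the sNPFR pool, Ptp99A being the exception, and 155 in all TRH pools, ChAT being the exception. Of the 1092 private genes, 277 (25.4%) were at 10 CPM in the sNPFR pool and 548 (50.2%) in all TRH pools. The count was higher in the TRH pools for the private genes of each of the 8 cells: in cell 4, 10 of 40 private genes were in the sNPFR pool and 13 in all TRH pools, and in cell 1, 76 and 135 of 241. In the sNPFR pool 517 private genes had 0 reads, and 52 were under 1 CPM in all 5 pools. That library had 56.1 M reads but only 4634 genes with a read. The TRH pools had 6510 to 8604 such genes, at 8.72 to 15.56 M reads, so fewer genes of any kind were found in the sNPFR pool. A pool of a single kind and 4 of another, treated differently, give no test of these differences.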

How the data were processed

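RNA of 8 single sNPFR-Gal4 cells, 1 sNPFR-Gal4 pool and 4 TRH-Gal4 pools was measured. The authors deposited whole read counts for 17737 genes, the values used here. They also deposited a normalized table of 6445 genes, used here as signal and only as an alternative. Whole reads recovered: divided by a single factor per library, 100% of values there were whole numbers at a tolerance of 0.001 of the value. Large values and 0 pass this tolerance in any case. The recovered numbers were not compared with the counts gene by gene. STAR, edgeR and the BDGP6 build were used per the submitters' processing notes, with no versions. For the counting tool, its annotation and any use of strand, the entry is: not given in the sources used here. A column of per-sample values that matches no sample was not used (1 column).

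Counts were divided by the column total (CPM). Thinning drew reads without replacement, with a fixed seed. Alternative scalings came from edgeR 4.0.16 (TMM) and DESeq2 1.42.0 in R 4.3.3, and tables from Python 3.11.15, numpy 2.4.6 and pandas 2.3.3. TPM used the summed exon length of each gene in the BDGP6 annotation of Ensembl release 115, which holds 17599 of the gene identifiers and gave the coordinates. Of these, 820 have another current symbol.

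The rules for core and private genes were tested on simulated data. No statistical test was run, because the labels name no animals and cells are not replicates of a condition. The members and the 44 gene lists were chosen with earlier results of these data known. Named genes were the transmitter genes, serotonin receptors, sNPF and its receptor; the 10 highest, most even and most uneven core genes; the 5 highest private genes of each cell (1 of them is not reported here) and private list members; up to 6 members of each list with the highest CPM; core receptors, channels, transcription factors and adhesion genes; and other cell types' markers at 10 CPM. CPM boundaries' neighbours, the core genes cited only by name, the 0-read markers and the ATP synthase genes set beside ATPsynbeta are named outside it, after their values were seen.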

Additional observations from a re-analysis of the deposited data

Results flagged for a closer look

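In 17 of 81 values looked at over the 8 cells (7 measures of the libraries and 74 named core genes on a log scale), a single cell lay far from the others relative to the whole range. The nominal rate of such flags, about 1 in 20, does not apply here. Some of the named core genes were chosen for their spread in these same values, and all share the same libraries. Cell 4 accounts for 11 of them. It had 10.64% of reads in mitochondrially encoded genes and 46.01% in core genes, and was high for mt:lrRNA (63022.9 CPM), para (15611.4 CPM) and nAChRalpha6 (11240.5 CPM). It was low for Atpalpha (2263.8 CPM), lncRNA:roX1 (2155.0 CPM), cpx (809.0 CPM), Hsp83 (146.1 CPM), Vha16-1 (13.61 CPM) and ATPsynbeta (13.31 CPM). Cell 10 was low for Ih (523.2 CPM), ATPsynC (33.81 CPM), hig (21.3 CPM) and Bacc (19.74 CPM), cell 3 was low for nAChRbeta1 (116.3 CPM), and cell 7 had the most reads (67.96 M). Cell 4 also had the fewest reads and genes. With every cell thinned to its reads, it still held the fewest genes at 10 CPM, 784 against 867 to 1896. The part of depth or RNA quality in its flagged values was not tested.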

How the results depend on the processing

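The core count of 156 was 166 with TMM scaling, 160 with DESeq2 size factors, 150 with mitochondrial and ribosomal RNA left out of the totals and 159 with the authors' normalized values, and 154, 154, 149 and 154 of these genes were in the 156. Thresholds of 1, 5, 20 and 50 CPM gave 215, 175, 144 and 128. Leaving out 1 cell at a time gave 158 to 213 core genes and 1040 to 1184 private genes. The private count of 1092 was 891 with TMM and 976 with DESeq2. It was 452 when 0 reads were required in the other cells. It was 1246 and 851 with 50 and 200 CPM required in the cell, and 1249 and 1315 with 5 and 10 CPM allowed in the others. Settings chosen after seeing the data were the removal of shared reads (153 core, 1171 private) and leaving out cells 7 and 10 (195 core, 1163 private). Of 313 named genes, the number of cells at 10 CPM was the same for 304 with DESeq2, 297 with TMM, 310 with shared reads removed and 311 after thinning. With a threshold of 1 CPM it was the same for 258, and 55 gained cells. With 50 CPM it was the same for 261, and 52 lost cells. No paired analysis was possible because no test was made. Depth limits cell 4 most, where 3 reads are 0.887 CPM, close to the 1 CPM bound of the private rule.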
